A study of Ovis aries with 6 samples.

Results

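Keratin-associated proteins (KAPs) are small proteins that fill the space between the keratin filaments of the wool fibre. The high and ultra-high sulphur families are rich in cysteine and form disulphide bonds with the keratins, whereas the high glycine-tyrosine families are rich in those 2 residues, and both are made late, in the keratinising cells above the wool bulb. Their genes lie in clusters of related copies, and few of them carry a KRTAP symbol in sheep. The 8 KAP genes described here were taken by name from the 28394 genes of the deposited tables. They are KRTAP1-1, KRTAP6-1 and KRTAP5.4 under their own symbols, and LOC101114537 (KRTAP4-9-like), LOC101115634 (KRTAP9-2), LOC101116068 (KRTAP9-9-like), LOC105605703 (KRTAP6-2-like) and LOC105611408 (KRTAP29-1) under locus numbers. All 8 passed the filter on low counts. All but KRTAP5.4 and LOC105611408 had been picked out by the study as changed in these same libraries, so that a direction found here for those 6 genes is not independent evidence.

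Polyadenylated RNA was sequenced from shoulder skin of 3 Super Merino (SM) ewes, a fine wool breed, and 3 Small Tail Han (STH) ewes, a coarse wool breed, with 1 library for each sheep. The labels give no treatment and an age of 9 months for every sheep, while the study's methods give a younger age. The labels name the SM animals 128, 30034 and 30126 and the STH animals XW3, XW5 and XW8, and values are given in this order. Total counts per library were between 28870583 and 44645091, so that 3 counts correspond to between 0.0672 and 0.104 CPM (counts scaled to a common library total). The skin is a mixture of cells, and in such bulk RNA a smaller share of fibre-forming cells and less KAP RNA in each of them cannot be told apart.

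On the per-length scale of RPKM (reads for each kilobase of exon, scaled to the library), the 8 genes spanned levels from abundant to low. LOC101115634 was the highest with a mean of 746.1 RPKM over the 6 sheep, which ranked 110 among all genes. It was followed by KRTAP6-1 with 613.7, KRTAP1-1 with 550.1 and LOC101116068 with 214.2 RPKM. The highest 3 genes could not be ordered beyond the spread between sheep, since LOC101115634 was above KRTAP6-1 in 4 of 6 sheep and KRTAP6-1 above KRTAP1-1 in 3 of 6. KRTAP1-1 was above LOC101116068 in 6 of 6 sheep. LOC101114537 lay lower, at 39.2 RPKM, and below LOC101116068 in 6 of 6 sheep. LOC105611408 and KRTAP5.4 were low, at 10.2 and 8.97 RPKM, and their order depended on the breed, with LOC105611408 higher in 3 of 3 STH sheep and in 0 of 3 SM sheep. LOC105605703 was the lowest, at 4.61 RPKM, below KRTAP5.4 in 6 of 6 sheep, and ranked 7626 among all genes.

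**Figure D1:**
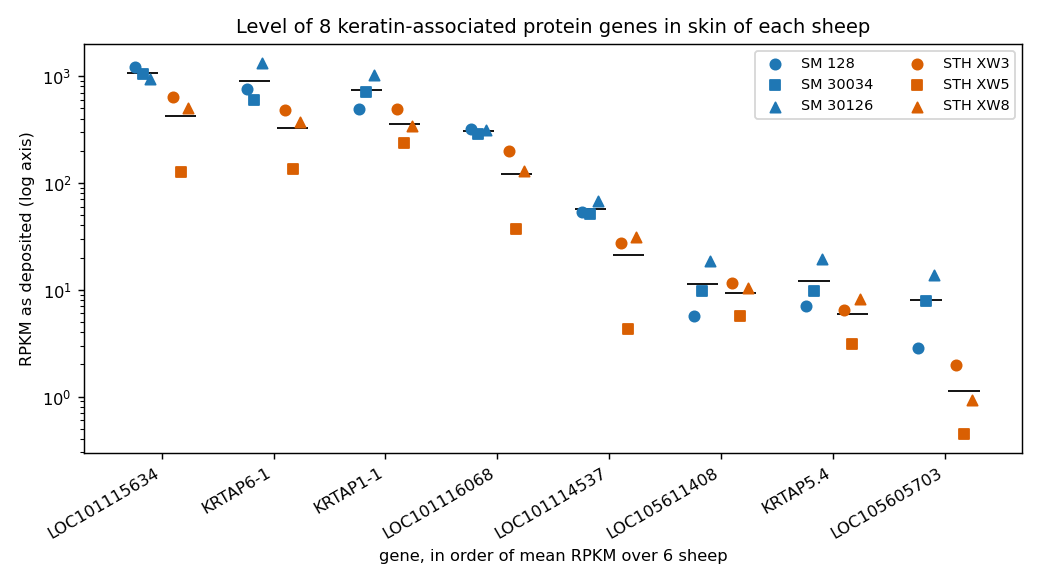
RPKM (log axis) of the 8 KAP genes, in order of their mean, with 1 point for each sheep, SM in blue and STH in orange, and a bar at each breed mean. XW5 has the lowest RPKM of every gene plotted, although LOC105611408 is nearly as low in SM sheep 128 (5.69 against 5.66 RPKM).

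Together the 8 genes gave a summed level of 2841, 2735 and 3740 RPKM in the SM ewes (128, 30034, 30126), and of 1860, 549.9 and 1397 RPKM in the STH ewes (XW3, XW5, XW8). This was between 0.638% and 0.754% of the RPKM of all genes in SM sheep and between 0.144% and 0.447% in STH sheep. Nearly all of it came from LOC101115634, KRTAP6-1, KRTAP1-1 and LOC101116068, and their shares differed between sheep. LOC101115634 made up 42.6% of the summed RPKM in sheep 128 and 22.9% in XW5. KRTAP1-1 went the other way, with 17.2% in sheep 128 and 43.4% in XW5. KRTAP6-1 stayed between 22.0% and 35.8% in the 6 sheep.

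Of the 8 genes, 5 lie on chromosome 11 of Oar_v4.0, inside the type I keratin and KAP cluster, within 172.7 kb. KRTAP1-1, of the high sulphur family, is annotated at chr11:40771911-40779617 on the minus strand with 448 exonic bases. LOC101114537 (chr11:40877006-40878061, minus strand), LOC101115634 (chr11:40898198-40899119, plus strand) and LOC101116068 (chr11:40915453-40917620, plus strand) follow within 40.6 kb of each other. LOC105611408 (chr11:40943041-40944609, minus strand) is next to them, towards the keratin genes K33 (KRT33A) and KRT34. The keratin genes KRT39 and KRT40 lie at the other end, beyond KRTAP1-1. On chromosome 1, LOC105605703 (chr1:122945583-122945870, plus strand) and KRTAP6-1 (chr1:123206755-123207367, minus strand) are 260.9 kb apart, both with a single exon and no other gene within 100 kb in the files. KRTAP5.4 (chr21:49072306-49124001, plus strand) has 717 exonic bases in a span of 51696 bases. Its span covers LOC106991825, which had no counts, and runs over the first 484 bases of DUSP8, a phosphatase gene on the same strand, so that its reads could be shared with DUSP8.

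The high glycine-tyrosine genes KRTAP6-1 and LOC105605703 were both higher in each SM sheep than in any STH sheep, and LOC105605703 had the largest fold difference of the 8 genes. KRTAP6-1 was at 673, 514 and 1153 CPM in the SM ewes and at 421, 122 and 337 CPM in the STH ewes. Its lowest SM sheep was 1.22 times the highest STH sheep. Its log2 fold change, SM over STH, was 1.41 (SE 0.45, adjusted p = 0.247, edgeR's quasi-likelihood test over 15320 genes), or 2.66-fold. LOC105605703 was at 1.19, 3.12 and 5.53 CPM in SM and at 0.811, 0.190 and 0.397 CPM in STH sheep, and its log2 fold change was 2.84 (SE 0.69, adjusted p = 0.230, edgeR). These levels rest on 36, 141 and 217 counts in the SM libraries and 25, 8 and 12 counts in the STH libraries. Although no sheep of one breed reached the other, the exact 95% counting interval of sheep 128, 0.873 to 1.73 CPM before normalization, overlapped that of XW3, 0.524 to 1.20 CPM. The intervals cover counting error only.

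The 3 ultra-high sulphur genes of the 40.6-kb stretch had one shape in common. LOC101115634 was at 1426, 1185 and 1076 CPM in the SM ewes and at 735, 151 and 598 CPM in the STH ewes. LOC101116068 was at 1016, 863 and 947 CPM in SM and at 615, 121 and 418 CPM in STH sheep. LOC101114537 was at 70.5, 64.9 and 86.5 CPM in SM and at 35.5, 5.85 and 42.1 CPM in STH sheep. SM sheep were close to each other and all above the STH sheep, among which XW5 was far below the other pair. The coefficient of variation was 14.6%, 8.13% and 15.2% in SM sheep and 61.8%, 64.7% and 69.4% in STH sheep for LOC101115634, LOC101116068 and LOC101114537. Their log2 fold changes were 1.31 (SE 0.47), 1.29 (SE 0.47) and 1.41 (SE 0.56), with adjusted p of 0.255, 0.255 and 0.261 by edgeR's quasi-likelihood test. Without XW5 the log2 fold changes were 0.88 for LOC101115634, 0.87 for LOC101116068 and 0.93 for LOC101114537. How alike these 3 copies are was not examined, and how reads that match several copies were counted is not given in the sources used here, so that shared reads cannot be told apart from separate expression.

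KRTAP1-1, KRTAP5.4 and LOC105611408 had another shape, in which SM sheep 128 was near the STH sheep. KRTAP1-1 was at 318, 447 and 644 CPM in the SM ewes and at 316, 159 and 226 CPM in the STH ewes. Sheep 128 was only 1.01 times XW3, and on the RPKM scale the order of these sheep turned, 488 against 495, so that its separation of the breeds rested on the scaling. KRTAP5.4, an ultra-high sulphur gene of the fibre cuticle, was at 7.37, 9.68 and 19.5 CPM in SM and at 6.58, 3.34 and 8.64 CPM in STH sheep, and the breeds overlapped. LOC105611408 was at 13.0, 21.1 and 40.6 CPM in SM and at 26.2, 13.2 and 24.1 CPM in STH sheep, where sheep 128 and XW5 were almost level at the bottom and sheep 30126 was the highest. The log2 fold change was 1.01 (SE 0.31, adjusted p = 0.247) for KRTAP1-1, 0.98 (SE 0.43, adjusted p = 0.277) for KRTAP5.4 and 0.24 (SE 0.40, adjusted p = 0.746) for LOC105611408, by edgeR's quasi-likelihood test. The value of LOC105611408 was −0.29 without sheep 30126 and −0.01 without XW5, so that no direction can be given for it. That of KRTAP5.4 was 0.48 without sheep 30126.

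Across the 8 genes, 0 passed both thresholds of the quasi-likelihood test of edgeR (a change of over 1.5-fold in either direction with an adjusted p under 0.05), against 0% of the 15320 genes tested. At an unadjusted p under 0.05, 6 of the 8 were higher in SM sheep, against 7.21% of all genes. In 6 of 8 every SM sheep was above every STH sheep on the CPM scale, against 12.3% of all genes, and this was 5 of 8 on the RPKM scale, against 13.5%. The median log2 fold change of the 8 genes was 1.30, and that of all genes 0.02. With DESeq2, KRTAP1-1 (adjusted p = 0.0405), KRTAP6-1 (adjusted p = 0.0278) and LOC105605703 (adjusted p = 0.00283) passed both thresholds, 3 of 8 against 1.02% of all genes called higher in SM. With the likelihood ratio test of edgeR only LOC105605703 passed (adjusted p = 0.00771), 1 of 8 against 0.868%. Without sheep 128 the quasi-likelihood test called KRTAP1-1 and LOC105605703, 2 of 8 against 1.34% of the genes of that fit called higher in SM, where 1175 genes were called in all. Since most of the 8 genes were chosen on these libraries, these shares describe the list and give no evidence of their own.

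The members varied together from sheep to sheep. Of the 28 pairs, 28 had a positive Pearson r of log2 CPM over the 6 sheep, with a median of 0.84 and a range of 0.36 to 0.99, and the median Spearman rho was 0.83 with a range of −0.20 to 1.00. By an exact permutation of the 6 sheep, 16 of 28 pairs had a Benjamini-Hochberg adjusted p under 0.05 for r and 0 of 28 for rho, where 18 pairs passed for r unadjusted. The pooled r contains the difference between the breeds. Most of the members had been picked out by the study for that difference in these same libraries, so the pooled p-values were partly fixed in advance. No share over pairs of other genes is given here to set beside them. With the breed means removed, 28 of 28 pairs were still positive, with a median r of 0.79 and a range of 0.41 to 0.99. Much of this rested on few sheep, since without the 2 sheep farthest from the median of the pair's first gene the median was 0.62 and the range −0.84 to 0.98. All points of a pair come from the same library, and therefore share its depth and its mix of cells.

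**Figure D2:**
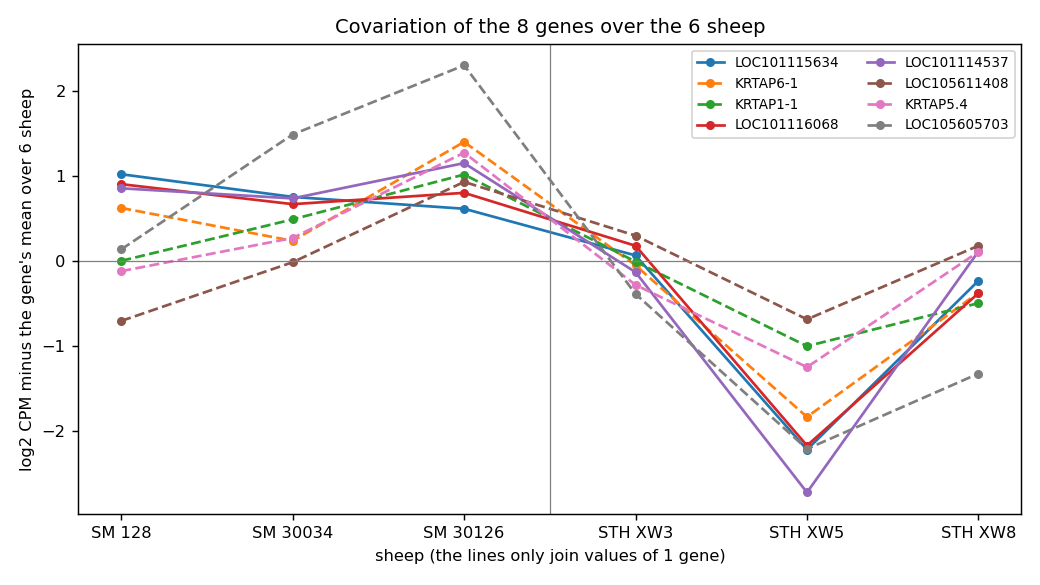
Log2 CPM of each KAP gene minus its mean over the 6 sheep, with SM sheep on the left and STH sheep on the right and full lines for the 3 genes of the 40.6-kb stretch on chromosome 11. The full lines are nearly level in the SM sheep and drop in XW5, while most broken lines peak in SM sheep 30126.

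LOC101115634 and LOC101116068, whose gene bodies are neighbours, were the closest pair in proportion. Their count ratio was 1.40, 1.37 and 1.14 in the SM ewes and 1.20, 1.25 and 1.43 in the STH ewes, while LOC101115634 itself spanned 9.45-fold and LOC101116068 8.43-fold over the 6 sheep. Pearson r of this pair reached 0.99 (p = 0.00278 by exact permutation, adjusted p = 0.0292) and Spearman rho 0.94 (p = 0.0167 by exact permutation, adjusted p = 0.0778). A close match was also seen between chromosomes. KRTAP1-1 on chromosome 11 and LOC105605703 on chromosome 1 ranked the 6 sheep in the same order, with an r of 0.99 (exact permutation p = 0.00139, adjusted p = 0.0292) and an r of 0.99 within breeds, although LOC105605703 moved over a range of 29.2-fold and KRTAP1-1 over 4.05-fold. All of these genes were among those the study had picked out in these libraries, so their pooled p-values were partly fixed in advance. Over all pairs of members, the median r was 0.84 for the 11 pairs on the same chromosome and 0.86 for the 17 pairs on different chromosomes.

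LOC105611408 was the least like the other members. Its pooled r was 0.36 with LOC101115634 (rho −0.20, exact permutation p = 0.714), 0.43 with LOC101116068 and 0.52 with LOC101114537, its neighbours on the chromosome. With the breed means removed the r with these 3 genes was still 0.41, 0.51 and 0.62, the first being the lowest of the 28 pairs, but it was 0.95 with KRTAP1-1, 0.95 with KRTAP5.4 and 0.94 with LOC105605703, where the pooled values were 0.69, 0.80 and 0.60. Against the mean profile of the other 7 genes, its r was 0.59, while those of the others were between 0.90 for LOC101115634 and LOC105605703 and 0.97 for KRTAP6-1.

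**Figure D3:**
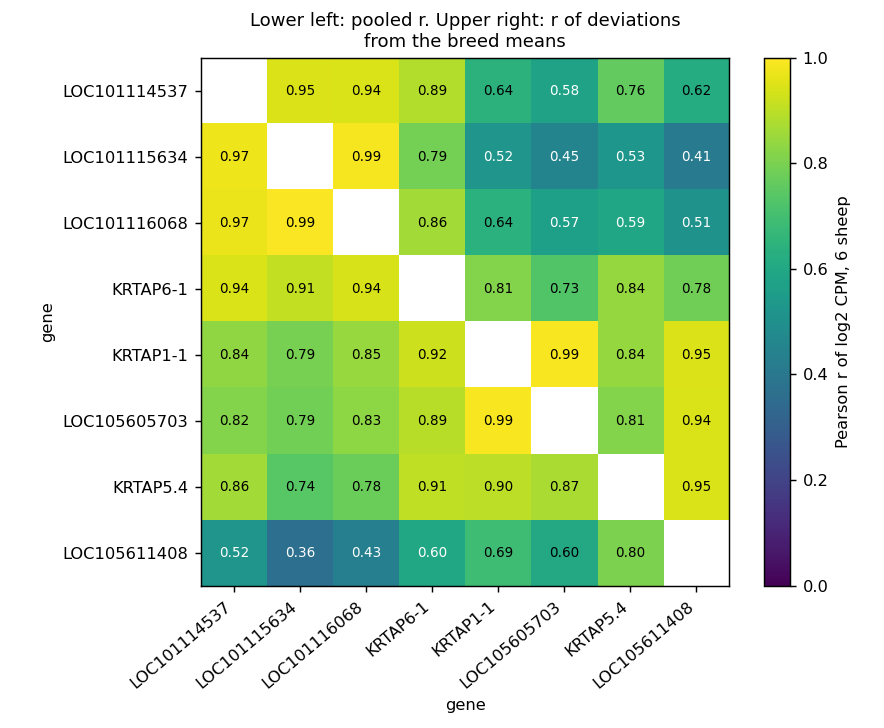
Pearson r of log2 CPM over the 6 sheep for each of the 28 pairs of KAP genes, pooled in the lower left and with the breed means removed in the upper right. LOC101114537, LOC101115634 and LOC101116068 form a block with r from 0.97 to 0.99, and LOC105611408 has pooled values of 0.36 to 0.80 and values of 0.41 to 0.95 with the breed means removed.

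Other genes lie between these members on chromosome 11, and they give the local background. Within 100 kb of a chromosome 11 member there were 21 further genes, of which 18 were tested. In the quasi-likelihood test 0 of 18 were called and 1 had an unadjusted p under 0.05, LOC101115138 with a log2 fold change of 0.74. Their log2 fold changes ran from −0.08 to 0.74 with a median of 0.44, so that LOC101114537, LOC101115634, LOC101116068 and KRTAP1-1 were all above the highest of the 18. The study had picked out these 4 members as changed in these same libraries, so their place above the neighbours was partly fixed in advance. Their SE, 0.31 to 0.56, was wide against that gap, and the difference between members and neighbours was not tested. The neighbours include LOC101112404, listed as KAP3.2 in the name table, at 0.57 (SE 0.28), BIIIB4, a type III high sulphur gene, at 0.39 (SE 0.33), and the keratin genes K33 (KRT33A) at 0.47 (SE 0.31), KRT34 at 0.27 (SE 0.29), KRT40 at 0.45 (SE 0.32) and KRT39 at −0.08 (SE 0.23). Several of them were more abundant than any of the 8 genes, led by LOC101112657 with a mean of 1962 RPKM, whose log2 fold change was 0.38 (SE 0.28). The remaining neighbours with at least 1 CPM were LOC101111893, LOC101113159, LOC106991399, LOC105610157, LOC101114287, LOC105616374, LOC101113420, LOC105616373, LOC101107617 and LOC100526782, with values between 0.26 and 0.61.

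How far XW5 lay below the other STH sheep varied along the cluster. Each of the 18 neighbours was lowest in XW5, with a ratio of XW5 to the mean of XW3 and XW8 between 0.194 and 0.705. KRTAP1-1 at one end had a ratio of 0.586 and LOC105611408 at the other 0.525, both near the 0.542 to 0.624 of the 4 genes with a keratin symbol. LOC100526782, which has no such symbol but lies between K33 and KRT34, was at 0.705. Between KRTAP1-1 and LOC105611408 the ratio was 0.458 to 0.508 at the 4 genes next to KRTAP1-1, and then 0.306 at LOC101114287, 0.321 at LOC105616374, 0.276 at LOC101113420, 0.151 at LOC101114537, 0.194 at LOC105616373, 0.226 at LOC101115634 and 0.233 at LOC101116068. The 4 lowest ratios of the cluster thus belong to the 4 genes of the 40.6-kb stretch, 3 of them members and LOC105616373 between them. This comes from 1 sheep and the stretch was chosen after its values were seen. The members elsewhere had ratios of 0.323 for KRTAP6-1, 0.314 for LOC105605703 and 0.439 for KRTAP5.4, and the 4 tested genes within 100 kb of KRTAP5.4 on chromosome 21 had 0.611 (DUSP8), 0.820 (LOC105604152), 1.07 (CD151) and 0.921 (PNPLA2), with log2 fold changes between the breeds of 0.23 to 0.42.

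**Figure D4:**
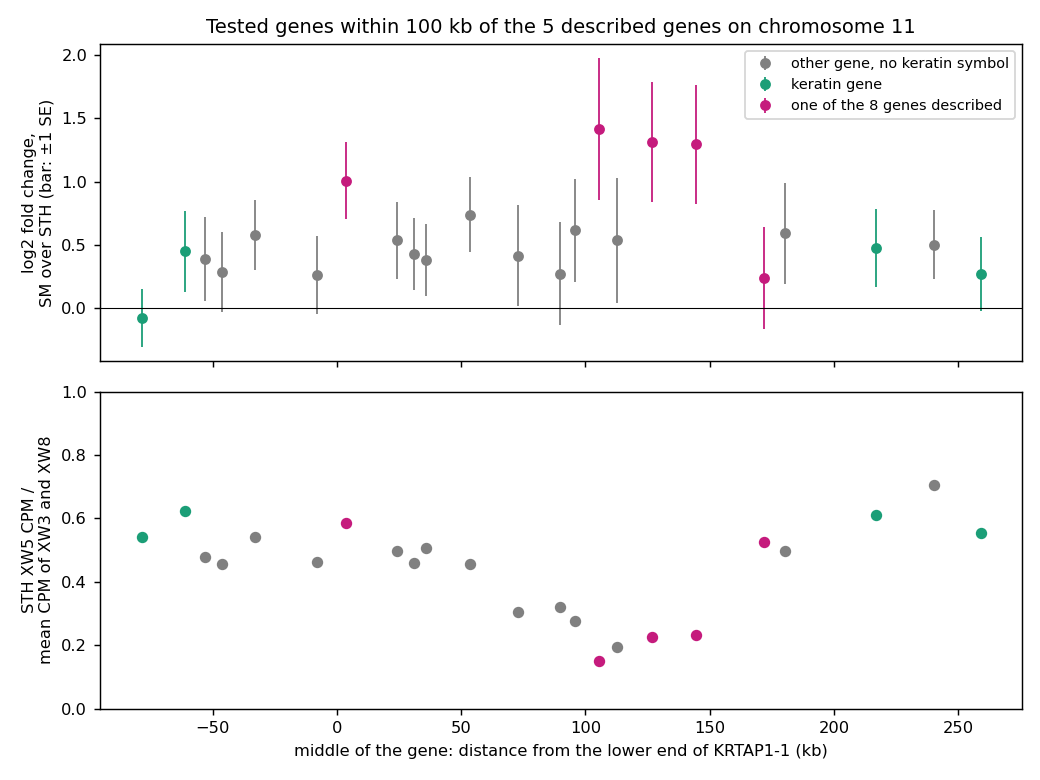
Tested genes within 100 kb of the 5 KAP genes on chromosome 11, placed by their distance from KRTAP1-1, with the log2 fold change of SM over STH and its SE above and the CPM of XW5 divided by the mean of XW3 and XW8 below. In the upper panel 4 of the 5 described genes stand at 1.01 to 1.41 above neighbours of at most 0.74. The study had picked out those 4 genes as changed in these same libraries. In the lower panel the ratio dips to 0.151 to 0.233 over 4 adjacent genes.

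The keratins of the wool cortex and cuticle, which make up the filaments that KAPs embed, showed smaller differences between the breeds. Most of the members had been picked out by the study as changed in these same libraries, so part of this contrast was built in. Of the type I hair keratins 8 were tested, with 0 called and a median log2 fold change of 0.51, and of the type II hair keratins 3 were tested, with 0 called and a median of 0.66. The most abundant were V15 (KRT31) at 0.55 (SE 0.23) and K33 in type I, and LOC100526780 (KRT83) at 0.66 (SE 0.30) and KRT82 at 0.39 (SE 0.32) in type II. The largest difference was that of KRT36 at 0.80 (SE 0.26), which the study also listed as higher in SM sheep. The 7 tested inner root sheath genes, which are made in the follicle but not in the fibre, had a median of −0.21 with 0 called, with KRT71 at −0.36 (SE 0.20) and KRT25 at −0.17 (SE 0.18). Transcription factors of the hair shaft had a median of 0.37 over 8 genes with 0 called, with DLX3 at 0.55 (SE 0.21) and FOXN1 at 0.67 (SE 0.24). These lists are read beside the median of 0.02 of all genes.

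Set against the keratins, the members were still higher in SM sheep. The summed CPM of the 8 genes divided by that of the 11 hair keratins found was 0.217, 0.180 and 0.145 in the SM ewes and 0.116, 0.0570 and 0.124 in the STH ewes. Without overlap between the breeds, the mean ratio of the SM ewes was 0.180 ± 0.036 (SD, n = 3), and that of the STH ewes 0.0991 ± 0.037 (SD, n = 3). This is a log2 difference of 0.86, of which no test was made, and 0.59 without XW5. As a percentage of the keratin CPM, KRTAP1-1, LOC101116068, KRTAP6-1 and LOC105605703 kept all SM sheep above all STH sheep, 4 of 8 against 0.496% of all genes tested on that scale. These 4 genes were among those the study had picked out in these libraries, so this share only describes the list. The keratin sum ran from 10098 CPM in XW5 to 27480 CPM in sheep 30126. A gene at an even CPM is therefore highest in XW5 on this scale, so the 0.496% is no base rate for fibre genes. LOC101115634 overlapped, with 8.77%, 6.85% and 3.92% in SM and 3.97%, 1.49% and 4.48% in STH sheep, since sheep 30126 had the highest keratin level. LOC105611408 was at 0.0801%, 0.122% and 0.148% in SM and at 0.141%, 0.131% and 0.180% in STH sheep, a log2 difference of −0.37.

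**Figure D5:**
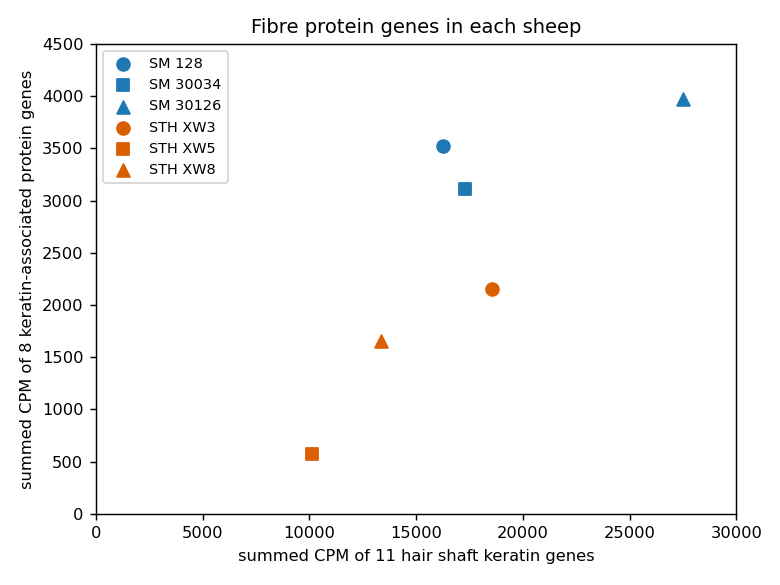
Summed CPM of the 8 KAP genes against that of 11 hair shaft keratin genes, 1 point for each sheep, SM in blue and STH in orange, with both axes from 0. SM sheep 128 and 30034 have less keratin CPM than STH sheep XW3 (16261 and 17305 against 18541) but more KAP CPM (3526 and 3108 against 2157).

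Markers of other skin cells also differed between the breeds, and their part in the values above was not tested. The summed CPM of smooth muscle markers (3 of 3 found) was 446 to 488 in SM and 894 to 1037 in STH sheep. That of adipocyte markers (3 of 3 found) was 28.8 to 64.3 in SM and 138 to 172 in STH sheep. By RPKM the adipocyte list was mostly FABP4 (mean 158 RPKM), with a log2 fold change of −1.84 (SE 0.31). ADIPOQ (0.71 RPKM) at −0.88 (SE 1.00) and PLIN1 (0.23 RPKM) at 0.14 (SE 0.47) overlapped between the breeds. Sebaceous gland markers (4 of 4 found) were at 983 to 1601 CPM in SM and 789 to 875 CPM in STH sheep. Macrophage and T cell markers (2 of 3 found) were at 36.3 to 40.6 CPM in SM and 34.4 to 36.1 CPM in STH sheep, ranges that nearly met. The T cell marker CD3E had a log2 fold change of 0.61 (SE 0.22), with all SM sheep above all STH sheep. The macrophage marker CD68 was at −0.05 (SE 0.14) and overlapped between the breeds. In the epidermis list (4 of 4 found) the ranges overlapped, 8433 to 10854 CPM in SM and 10614 to 17767 CPM in STH sheep, but 4 of 4 genes had a negative log2 fold change with a median of −0.85, including KRT10 at −1.34 (SE 0.29), in which all STH sheep were above all SM sheep, and KRT1 at −1.20 (SE 0.35). The ranges also overlapped for the fibroblast, skeletal muscle, endothelium and melanocyte lists. No found marker was at 0 in all sheep. In XW5, where 7 of the 8 members had their lowest CPM, the sebaceous gland markers (789 CPM), melanocyte markers (3.70 CPM), hair shaft transcription factors (1339 CPM) and type I and type II hair keratins (7292 and 2806 CPM) were also at their lowest of the 6 sheep. The inner root sheath genes of XW5 (15042 CPM) were not, and lay above those of every SM sheep (at most 14218 CPM). Within the sebaceous list SCD and FASN were lowest in XW5 by RPKM, but its AWAT1 (4.63 RPKM) was above that of XW3 (3.29 RPKM). DGAT2L6 in XW5 (1.01 RPKM) was the highest of the STH sheep. The melanocyte sum rested on low levels, with PMEL at 0.380 and DCT at 0.956 RPKM in XW5. The adipocyte sum (172 CPM) of XW5 was the highest of the 6 sheep, as was its FABP4, but its ADIPOQ (0.393 RPKM) was below that of XW3 and XW8. Its fibroblast markers (20013 CPM) were the highest of the STH sheep. Its smooth muscle (939 CPM) and epidermis markers (14925 CPM) lay between those of the other STH sheep.

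Genes outside the cluster followed the members closely. Over the 6 sheep, the 5 tested genes with the highest r to the mean profile of the 8 genes were S1PR2 (r = 0.9996, rho 1.00), a sphingosine-1-phosphate receptor, E2F1 (r = 0.994), a cell cycle transcription factor, ATF4 (r = 0.992), a transcription factor of the amino acid response, GYPC (r = 0.991), a red cell membrane protein, and LOC101112245 (AHCY, r = 0.990), which hydrolyses adenosylhomocysteine. Such likeness was common at this number of sheep, with 584 of 15312 genes, 3.81%, above an r of 0.9. S1PR2 was at 7.59, 8.46 and 9.97 RPKM in SM and at 7.07, 4.11 and 6.23 RPKM in STH sheep, in the same order as the members' mean profile but over a far smaller range.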

How the data were processed

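The authors mapped the reads of each library to Oar_v4.0 with CLC Genomics Workbench and deposited 1 table per sheep. The deposited total counts are whole numbers without normalization, and no rows were set aside. Which reads they include, and whether strand was used, is not given in the sources used here. The RPKM values were computed by the authors from exon length, and exon lengths were recovered from them. The TPM values and the score called CPM that the authors deposited were not used. Groups were taken from the breed labels.

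The 15320 genes that reached 10 counts in 3 or more sheep were tested with edgeR 4.0.16 in R 4.3.3 (TMM, quasi-likelihood test, breed as the only term, Benjamini-Hochberg adjustment over all genes). A gene was called when it changed over 1.5-fold with an adjusted p under 0.05, and DESeq2 1.42.0, the likelihood ratio test, other normalizations and filters and the omission of each sheep were alternatives. CPM are TMM-normalized and log2 CPM carry a prior count of 2. On simulated counts, DESeq2 and the likelihood ratio test made more false calls than the quasi-likelihood test. Each gene was drawn independently there, so that this does not show which calls in these libraries are false. Each library is 1 animal. Counting intervals are exact binomial intervals at 95%. Pair correlations were tested by exact two-sided permutation of the 6 sheep.

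The members, gene lists and tests were chosen with earlier results of these data known. The genes named are the 8 members, the 2 most abundant of each wool fibre list, genes within 100 kb of a member with a mean of at least 1 CPM, and the 5 tested genes most like the mean member profile. KRT36 and single cell markers were added after their values were seen. Names came from the files, the study and a RefSeq table of another assembly, which matched 21630 of 28394 identifiers and gave no coordinates. Sequences were not used here.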

Additional observations from a re-analysis of the deposited data

Results flagged for a closer look

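Of the genes within 100 kb of a member, 3 had a total count of 0 in every library and an RPKM, in every library, above the level that 3 counts over the gene's span would give, and no comparison above uses them. LOC106991427, 20.1 kb from LOC101114537 in the chromosome 11 cluster, had a mean of 30.9 RPKM, at 29.7, 28.9 and 47.2 in the SM ewes (128, 30034, 30126) and 29.1, 12.3 and 37.9 in the STH ewes (XW3, XW5, XW8). LOC105616464, also between KRTAP1-1 and LOC101114537, had a mean of 1.25 RPKM (0.368 to 2.04). LOC105604154 (POLR2L, an RNA polymerase subunit that every cell uses), 80.8 kb from KRTAP5.4, had a mean of 9.43 RPKM (7.68 to 13.5). The total counts of 0 of these genes are therefore no measure of their expression. In all, 4291 genes of the files had an RPKM above 0 with a total count of 0 in every sheep. With 3 sheep in each breed, samples were not screened for outliers.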

How the results depend on the processing

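Across the alternatives, 94 of 96 values of the log2 fold change of single members were higher in SM sheep. The exceptions were LOC105611408 without sheep 30126 (−0.29) and without XW5 (−0.01), whose values with a sheep left out ran from −0.29 to 0.54. KRTAP5.4 was at 0.48 without sheep 30126. Without XW5, LOC101114537 was at 0.93, LOC101115634 at 0.88 and LOC101116068 at 0.87. The number of genes called was 0 with TMM, RLE and upper quartile scaling, 2 without a count filter, 8 with the exon length trend removed, 352 with the likelihood ratio test, 439 with DESeq2, and 0 to 1175 when a sheep was left out, the highest being without sheep 128. The number of members called was 3 with DESeq2, 1 with the likelihood ratio test and 0 to 2 when a sheep was left out. The median log2 fold change of the members was 0.87 (without XW5) to 1.67 (without XW3) when a sheep was left out, and 1.21 to 1.33 under the other settings. The median pair correlation was 0.79 with the breed means removed and 0.84 to 0.85 otherwise. The log2 ratio of members to keratins was 0.59 (without XW5) to 1.06 (without XW8) when a sheep was left out, and 0.81 with RPKM. The number of members with all SM sheep above all STH sheep, examined on other scales after seeing the data, was 4 to 6. With a sheep left out it was 6 to 7, where fewer sheep make such a separation easier. The causes were not tested. No paired analysis was possible because the labels match no animal of one breed to an animal of the other. Depth limits LOC105605703 most, with 8 to 217 counts.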
